A study of Rattus norvegicus with 43 samples.

Results

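The genes that load and display antigen on MHC class II were followed through the distal colon of rats on 6 diets. The set comprised 10 symbols, RT1-Ba, RT1-Bb, RT1-Da, RT1-Db1, RT1-DMa, RT1-DMb, RT1-DOa, RT1-DOb, Cd74 and Ciita, out of 14506 symbols on the array. Each symbol had 1 probe set, and all 10 passed the filter on low signal that left 10934 genes for testing. The rats were Sprague Dawley animals of 11 weeks, and 100 ng of total RNA per array was labelled. The series gives 43 rats, 1 per array. The labels name no genetic change and no agent other than the diet. The diets carry codes, read here from general knowledge of the study: CON is a control diet (n = 5), LAMS a Western-type diet with low-amylose maize starch (n = 7), HAMS that diet with high-amylose maize starch (n = 8; the labels write HAM), HAMSB the same with butyrylated high-amylose maize starch (n = 9), LAW low-amylose wheat (n = 6) and HAW high-amylose wheat (n = 8). Sprague Dawley rats are an outbred stock, so individual animals can carry different MHC alleles.

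MHC class II molecules are pairs of an alpha and a beta chain that show peptides from endocytosed proteins to CD4+ T cells. In the rat the classical chains are RT1-B (RT1-Ba and RT1-Bb) and RT1-D (RT1-Da and RT1-Db1). The invariant chain, encoded by Cd74, fills the groove of new dimers and guides them to endosomes; RT1-DM (RT1-DMa and RT1-DMb) then exchanges the remaining fragment for peptide, and RT1-DO (RT1-DOa and RT1-DOb) restrains RT1-DM, chiefly in B cells. Ciita is the coactivator that switches the set on, and it acts through factors bound to a conserved promoter module whose parts are called the X and Y boxes. B cells, dendritic cells and many macrophages carry class II; in the colon wall B cells are concentrated in lymphoid follicles.

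RefSeq promoters of the GRCr8 assembly, each from 250 bases before to 50 bases after the start site, were available for 8 of the 10 members, all but RT1-DMb and Ciita. The 7 RT1 promoters among them are shown because they share the Y box, and 5 of them carry the X box core spelling ACNGATG before it. RT1-Ba and RT1-DOa do not, but a missing match to this spelling does not show that an X box is absent. Each line is the 100 bases, read 5′ to 3′ on the gene's strand and lying upstream of the start site, that end just past the Y box. Capitals mark the Y box TGATTGG and, where it was found 15 to 35 bases before it, the X box core ACNGATG.
RT1-Da: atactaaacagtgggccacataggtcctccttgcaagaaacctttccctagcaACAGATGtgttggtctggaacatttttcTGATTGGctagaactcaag
RT1-Db1: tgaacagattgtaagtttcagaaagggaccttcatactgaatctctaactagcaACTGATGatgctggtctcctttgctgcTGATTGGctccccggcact
RT1-Ba: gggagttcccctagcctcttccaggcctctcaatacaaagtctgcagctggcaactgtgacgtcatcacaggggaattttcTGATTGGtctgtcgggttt
RT1-Bb: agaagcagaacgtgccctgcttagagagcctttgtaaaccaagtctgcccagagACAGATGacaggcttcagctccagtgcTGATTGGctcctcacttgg
RT1-DMa: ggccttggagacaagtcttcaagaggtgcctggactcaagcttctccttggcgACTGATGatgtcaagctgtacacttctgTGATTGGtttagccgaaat
RT1-DOa: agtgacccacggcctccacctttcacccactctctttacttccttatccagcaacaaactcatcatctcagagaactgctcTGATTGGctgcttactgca
RT1-DOb: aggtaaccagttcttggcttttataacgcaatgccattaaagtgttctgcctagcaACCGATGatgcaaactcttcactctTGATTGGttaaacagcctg

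These stretches lie on chromosome 20, at chr20:4515283-4515382 (RT1-Da, plus strand), chr20:4560226-4560325 (RT1-Db1, minus), chr20:4576931-4577030 (RT1-Ba, plus), chr20:4604163-4604262 (RT1-Bb, minus), chr20:4712383-4712482 (RT1-DMa, minus), chr20:4758514-4758613 (RT1-DOa, minus) and chr20:4627590-4627689 (RT1-DOb, minus). The short Y box core ATTGG, searched on both strands, was present in 8 of 8 member promoters and in 37.7% of 27457 promoters. An X box core written AGNNACAGA, also on both strands, matched 4 of the 8 and 8.4% of all. RT1-Ba (gene strand) and RT1-DOa (other strand) were among these 4. Followed 15 to 35 bases later by ATTGG, that core matched 2 of the 8, RT1-Da and RT1-Bb, and 0.109% of all. The longer Y box TGATTGG, which contains ATTGG, matched 7 of the 8 and 7.31% of all, and ACNGATG followed by TGATTGG matched 5 of the 8 and 0.0401% of all, 11 promoters. The longer Y box and the core ACNGATG were chosen after reading the members' promoters, so their counts in the members are a description. RT1-Bb, whose signal behaved differently from that of the other members, carried both boxes in either spelling, as did RT1-Da.

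Of 11 epithelial and 9 distal colon marker genes, all lay above the floor of 4.75 on all 43 arrays except Retnlb, which did so on 42 (4.52 to 11.08, log2 signal); Epcam ran from 10.34 to 11.53 and Aqp8 from 6.80 to 10.10. The arrays differed widely in B cell markers. The mean of 11 B cell marker genes, among them Ms4a1, Cd79b, Cd22 and Cr2, lay between 4.96 and 5.59 on 25 arrays and between 6.31 and 9.29 on 18, with a gap of 0.72 (16.6% of the range) between those sets. The arrays above the gap were 1 of 5 in CON, 3 of 7 in LAMS, 6 of 8 in HAMS, 3 of 9 in HAMSB, 2 of 6 in LAW and 3 of 8 in HAW. In whole tissue more cells of a type and more RNA per cell cannot be told apart. Array file names come in 3 styles, which may mark batches. All 8 HAMS arrays have 1 style, so values within styles and with style as a block are given below where they bear on a result. The number in each file name was taken as an animal number, a reading that was not checked. Numbers up to 30 form the low range and those above 30 the high range.

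The classical chains were readily detected in every diet, and their means were highest in HAMS for 3 of the 4. RT1-Da signal on the 5 CON arrays was 10.43, 10.24, 10.61, 10.55 and 11.32. Its lowest, median and highest arrays were 10.06, 10.58 and 11.69 in LAMS, 10.36, 11.40 and 12.26 in HAMS, 9.53, 10.53 and 11.35 in HAMSB, 10.03, 10.30 and 11.61 in LAW, and 10.40, 10.62 and 11.78 in HAW. Every diet overlapped every other, and each held 1 or more arrays well above its median. Mean RT1-Da signal was 11.23 ± 0.64 (SD, n = 8) in HAMS and between 10.53 and 10.81 in the other diets. RT1-Ba was likewise highest in HAMS, with 9.47 ± 0.70 (SD, n = 8) in HAMS against 8.73 ± 0.27 (SD, n = 5) in CON, and RT1-Db1 averaged 8.35 ± 0.60 (SD, n = 8) in HAMS against 7.80 ± 0.39 (SD, n = 5) in CON. RT1-Bb, the beta chain that pairs with RT1-Ba, was the exception, with its highest mean in LAMS (7.67 ± 1.16, SD, n = 7) and 7.52 ± 0.61 (SD, n = 8) in HAMS.

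**Figure D1:**
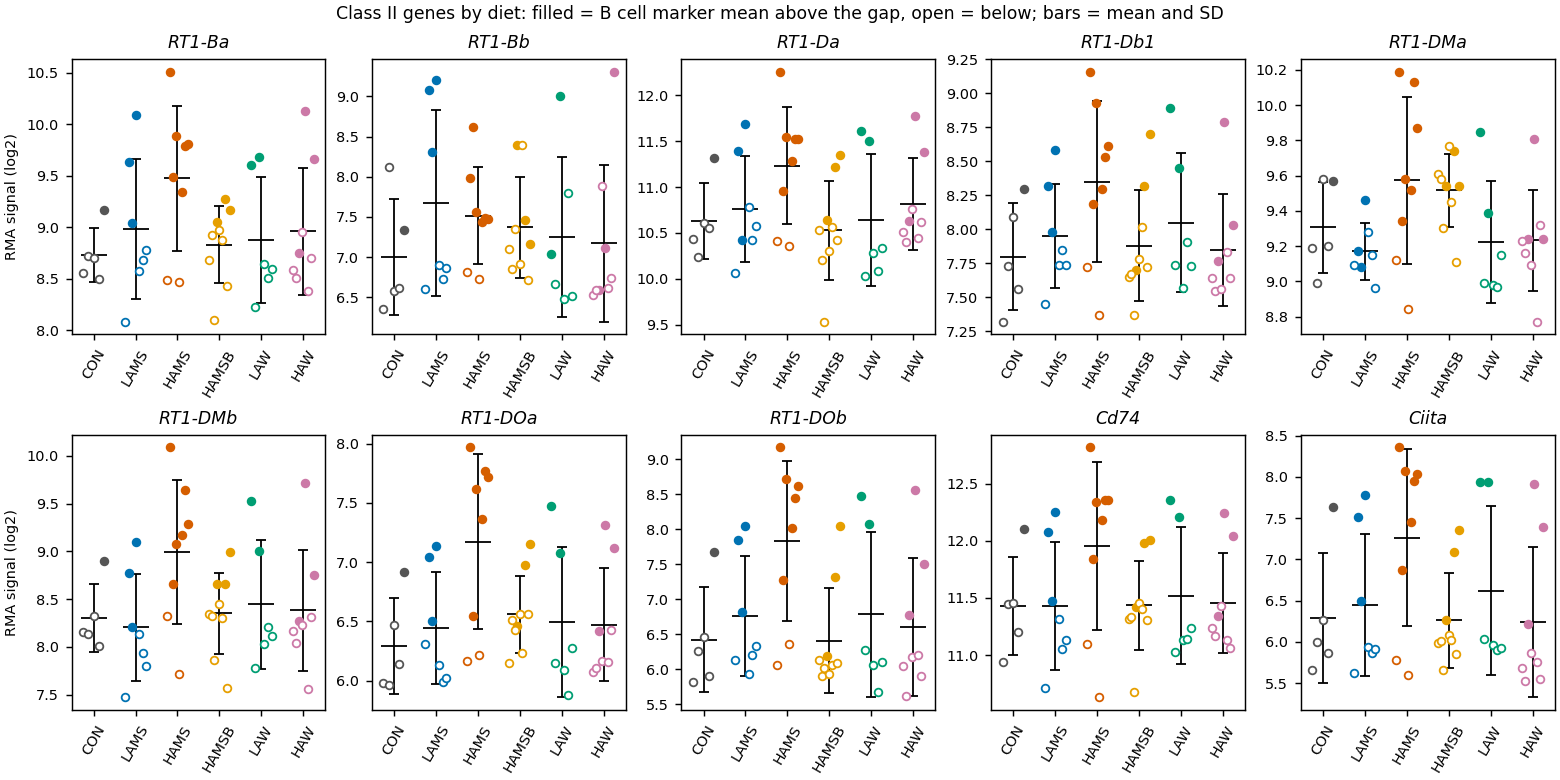
RMA signal (log2) of each class II gene on every array, by diet; filled points are arrays whose B cell marker mean lay above the gap, open points those below it, and black bars give the mean and SD. Within each diet the filled points lie mostly above the open ones, with RT1-Bb and RT1-DMa showing the most mixing.

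RT1-DM and RT1-DO, which edit the peptides, were also highest in HAMS. RT1-DMa, the alpha chain of the editor, read 9.19, 8.99, 9.58, 9.20 and 9.57 on the CON arrays. Its lowest, median and highest arrays were 8.96, 9.15 and 9.46 in LAMS, 8.84, 9.55 and 10.19 in HAMS, 9.11, 9.54 and 9.78 in HAMSB, 8.97, 9.07 and 9.85 in LAW, and 8.77, 9.24 and 9.81 in HAW. The HAMS and HAMSB medians were thus alike, while HAMS spread the wider (SD 0.47 against 0.21). RT1-DMb averaged 8.99 ± 0.75 (SD, n = 8) in HAMS and between 8.20 and 8.45 in the other diets. RT1-DOa averaged 7.17 ± 0.74 (SD, n = 8) in HAMS and between 6.29 and 6.56 in the others.

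RT1-DOb, the beta chain of the RT1-DM inhibitor, spread more than any other member. It read 5.82, 6.26, 6.46, 5.90 and 7.68 on the CON arrays. Its lowest, median and highest arrays were 5.93, 6.33 and 8.04 in LAMS, 6.07, 8.23 and 9.17 in HAMS, 5.91, 6.09 and 8.05 in HAMSB, 5.69, 6.20 and 8.48 in LAW, and 5.62, 6.19 and 8.57 in HAW. All diets overlapped, since even HAMS held 2 arrays under 6.40, but in HAMS 6 of the 8 arrays were high and elsewhere most were low.

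Cd74 and Ciita showed the same distribution. Cd74 read 10.94, 11.45, 11.46, 11.20 and 12.10 on the CON arrays, and its mean was 11.95 ± 0.73 (SD, n = 8) in HAMS and between 11.43 and 11.52 in the other diets. Ciita read 5.66, 6.00, 6.27, 5.87 and 7.64 on the CON arrays; its lowest, median and highest arrays were 5.60, 7.70 and 8.36 in HAMS, 5.62, 5.94 and 7.78 in LAMS and 5.66, 6.02 and 7.36 in HAMSB. The groups again overlapped. Of the 10 members 9 had their highest mean in HAMS, and in none of the 7 pairs of diets compared did any member separate the diets without overlap. Neither count was taken over all genes tested, so neither can be read as particular to the members. The spread within diets was large: its SD was 0.31 for RT1-DMa and 0.46 to 0.96 for the other 9, where the median over all genes tested was 0.24.

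High-amylose against low-amylose maize starch changed no member past the threshold, although 9 of the 10 were higher in HAMS. With limma p-values under Benjamini-Hochberg adjustment over all genes, 0 of 10 members were called in HAMS minus LAMS, against 14.1% of all genes. An unadjusted p under 0.05 was reached by 4 of the 10 members and by 3686 of all 10934 genes. The members' median difference was 0.51 and that of all genes -0.08. The smallest p-values belonged to RT1-DOa (0.73, SE 0.26, limma adjusted p = 0.0526), RT1-DMb (0.79, SE 0.29, limma adjusted p = 0.0568) and RT1-DMa (0.40, SE 0.16, limma adjusted p = 0.0691), just short of the threshold. Without HAMS replicate 5 or 1, the arrays of that diet low in B cell markers, 5 and 4 members passed, and without LAMS replicate 4 or 2, which were high in them, 3 and 2; leaving out HAMS replicate 3, LAW replicate 1 or HAW replicate 5 gave 2 each and HAW replicate 8 gave 1. With style as a block RT1-DMb passed (1.05, limma adjusted p = 0.0347). The share of all genes called was not counted for these runs, so gains in members cannot be told apart from gains over all genes. Within the single style that held both diets (8 HAMS and 3 LAMS arrays) all 10 members were higher in HAMS, by 0.46 to 1.70, but those 3 LAMS arrays all lay below the gap in B cell markers and 6 of the 8 HAMS arrays above it. Within the high and low ranges of animal numbers the members' median differences were 0.499 and 0.476, and RT1-Bb was lower in HAMS in both (-0.265 and -0.0298).

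Butyrylation of the high-amylose starch was the 1 comparison with a called member. RT1-DOb was lower in HAMSB than in HAMS by a log2 difference of -1.42 (SE 0.44, 95% interval -2.31 to -0.53, limma adjusted p = 0.0245), in a comparison that called 16.7% of all genes. All 10 members had a negative difference, with a median of -0.63 against 0.07 for all genes. Of the members 8 had an unadjusted p under 0.05, as had 3807 of all 10934 genes. RT1-Da (-0.70, SE 0.26, limma adjusted p = 0.0575) and RT1-DOa (-0.61, SE 0.24, limma adjusted p = 0.0722) came next without passing. The RT1-DOb call was lost without HAMS replicate 2, 4 or 8 in turn (-1.23 to -1.31, limma adjusted p = 0.0531 to 0.0764); conversely 8 members passed without HAMS replicate 5, 6 without HAMS replicate 1, 5 without HAMSB replicate 9, and 2 without HAMS replicate 3, HAMSB replicate 7, LAMS replicate 4, LAW replicate 1 or HAW replicate 5. With style as a block 8 members passed, all but RT1-Bb and RT1-DMa, and RT1-DOb stood at -1.84 (limma adjusted p = 0.00615). Shares of all genes called were not counted for these runs either. Within the shared style (5 HAMSB and 8 HAMS arrays) the RT1-DOb difference was -1.80, and within the low and high ranges of animal numbers -1.47 and -1.15.

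The medians of B cell, T cell and dendritic cell markers had the same sign as those of the members in HAMS minus LAMS and HAMSB minus HAMS. Over the 8 B cell markers that passed the filter the median difference was 1.41 in HAMS minus LAMS, with 0 of 8 called, and -1.59 in HAMSB minus HAMS, with 1 of 8 called; the mean of all 11 ranged from 5.03 to 9.29 in HAMS, 4.99 to 8.67 in LAMS and 5.14 to 8.09 in HAMSB. In the same order, 9 T cell markers had medians of 1.16 and -1.18 with 0 and 2 called, and 7 dendritic cell markers 0.21 and -0.29 with 0 and 2 called. The 2 dendritic cell markers called were Ccr7 and Cd83, which lymphocytes also express. Macrophage marker medians, -0.04 and 0.09, had the opposite sign but lay near the medians of all genes, -0.08 and 0.07. Within diets every member rose with the macrophage marker mean, with limma slopes of 1.01 to 3.21 per log2 unit. All of these slopes passed, as did 32.3% of all genes. Among 7 fibroblast markers 5 fell in HAMS against LAMS, and among 11 epithelial markers 2 fell there and 4 rose in HAMSB against HAMS. Of all 10934 genes 1308 fell and 237 rose in HAMS against LAMS, and 271 fell and 1550 rose in HAMSB against HAMS. The part of these cell types in the members' differences was not tested. When the B cell marker mean of each array entered the model as a covariate, the members' median became 0.05 in HAMS minus LAMS and -0.06 in HAMSB minus HAMS. RT1-DOb then differed by -0.40 between HAMSB and HAMS (SE 0.12, limma adjusted p = 0.0596), and by -0.48 with style as a block as well (limma adjusted p = 0.031). With the covariate alone HAMS minus LAMS called 6.67% of all genes instead of 14.1%, and HAMSB minus HAMS 2.3% instead of 16.7%.

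**Figure D2:**
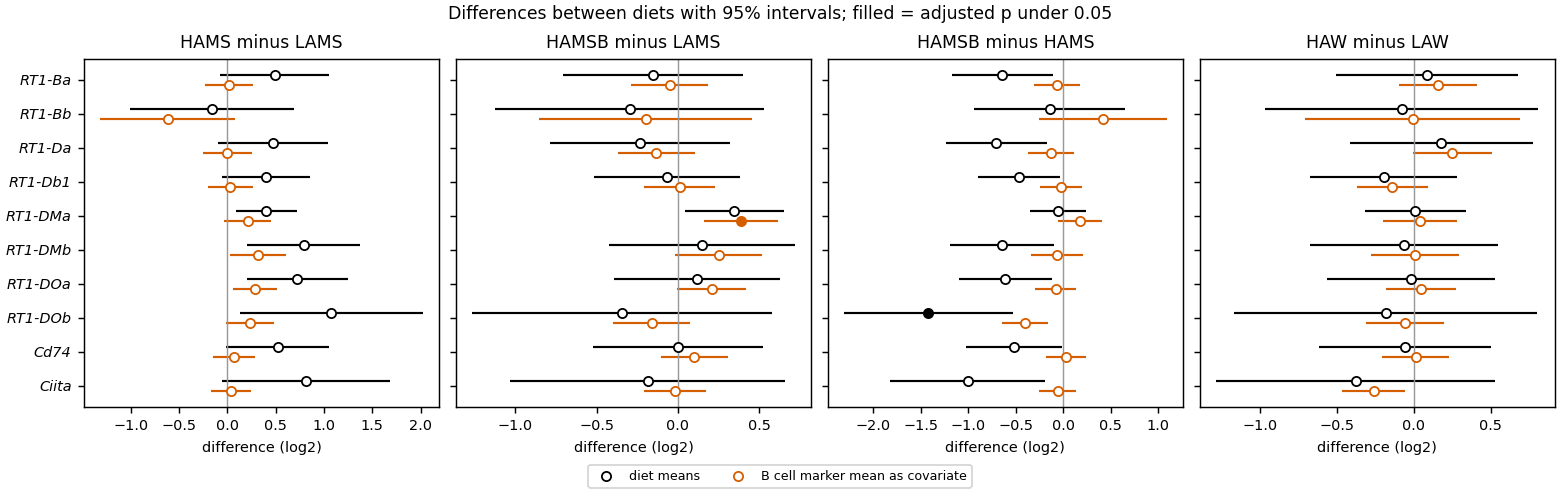
Differences between diets (log2, x axis) for each class II gene with 95% intervals, in 4 comparisons, from diet means alone (black) and with the B cell marker mean as a covariate (orange); filled symbols passed an adjusted p of 0.05. The negative HAMSB minus HAMS differences shrink toward 0 with the covariate, and RT1-DMa in HAMSB minus LAMS is filled with it.

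In the comparison of butyrylated with low-amylose starch, RT1-DMa was the member with the smallest p, and its call depended on the model. In HAMSB minus LAMS no member was called, against 6.78% of all genes. RT1-DMa differed by 0.35 (SE 0.15, limma adjusted p = 0.14), the 1 member with an unadjusted p under 0.05, where 2856 of all 10934 genes had one. It passed when only the compared diets were fitted (limma adjusted p = 0.0427) and with array weights (limma adjusted p = 0.0224). RT1-Da (-0.23) and RT1-DOb (-0.34), the next by p, were lower in HAMSB without passing (limma adjusted p = 0.611 and 0.657). With the B cell marker mean as a covariate RT1-DMa rose by 0.39 (SE 0.11, limma adjusted p = 0.0203), in a comparison that then called 13.3% of all genes, and with style as a block too by 0.42 (limma adjusted p = 0.0382). It was also higher within the shared style, by 0.45 (5 HAMSB and 3 LAMS arrays). Its partner RT1-DMb differed by 0.25 with the covariate (limma adjusted p = 0.192).

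No member passed in the remaining comparisons. In HAW minus HAMS all 10 were lower in HAW with a median of -0.51, where 13.3% of all genes were called. RT1-DOa (-0.70, limma adjusted p = 0.0557), RT1-DOb (-1.23, limma adjusted p = 0.0603) and Ciita (-1.02, limma adjusted p = 0.0856) had the smallest p. An unadjusted p under 0.05 was reached by 6 members and by 3588 of all 10934 genes. Leaving out HAMS replicate 5 or HAW replicate 5 brought 7 and 6 members past the threshold, leaving out HAMS replicate 1 or HAW replicate 8 brought 3, and leaving out HAMS replicate 3 or LAW replicate 1 brought 1. The share of all genes called was again not counted for those runs. LAMS minus CON, HAW minus LAW and LAW minus LAMS each called 0.0% of all genes and no member. No member had an unadjusted p under 0.05 there, where 938, 212 and 192 of all 10934 genes did. The members with the smallest p were RT1-Bb (0.67, 95% interval -0.29 to 1.63), RT1-Ba (0.25) and RT1-DMa (-0.14) in LAMS minus CON, Ciita (-0.38, 95% interval -1.29 to 0.53), RT1-Db1 (-0.20) and RT1-Da (0.18) in HAW minus LAW, and RT1-Bb (-0.42, 95% interval -1.34 to 0.49), RT1-DMb (0.24) and RT1-Da (-0.13) in LAW minus LAMS. These intervals leave room for differences of more than 1 log2 unit in RT1-Bb and Ciita. The interaction of amylose with grain, taken as HAW minus LAW less HAMS minus LAMS, called 0.0274% of all genes and no member; it gave -0.86 for RT1-DMb, -0.74 for RT1-DOa and -1.20 for Ciita (limma adjusted p = 0.322 to 0.344).

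The F test over all 6 diets called none of the members, against 30.7% of all genes. Only 2 members had an unadjusted p under 0.05, RT1-DOa (limma adjusted p = 0.0788) and RT1-DOb (limma adjusted p = 0.0858), against 5002 of all 10934 genes. The same F test called 9 members with array weights, 3 without HAMS replicate 5, 2 without HAMS replicate 1 or LAW replicate 1, and 1 without HAMSB replicate 9 or HAW replicate 5. Array weights also raised the count of called members to 7 between HAMS and LAMS, to 8 between HAMSB and HAMS, and to 9 between HAW and HAMS. How many of all genes were called with array weights, or with an array left out, was not counted. With the B cell marker mean as a covariate the F test called RT1-DMa (limma adjusted p = 0.0458) and 28.1% of all genes. With style as a block in addition RT1-DMa did not pass (limma adjusted p = 0.238).

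Where lymphocyte markers were high, 9 of the 10 class II genes tracked them within diets. Among the 18 arrays above the gap in B cell markers, deviations of Cd74 from its diet means followed those of the B cell marker mean with r = 0.973 and rho = 0.963 (permutation within diets, adjusted p = 5.87e-05 for r and 0.000422 for rho), and RT1-Da did so with r = 0.963. Over the 9 members other than RT1-Bb r ran from 0.677 (RT1-DMa) to 0.973, with adjusted permutation p of at most 0.00883, and from 0.663 to 0.972 without the 2 arrays farthest from the median. Among the 25 arrays below the gap the same 9 members had r from -0.197 to 0.521 with the B cell marker mean, the highest for RT1-DOb, and none passed (adjusted permutation p of 0.21 or more). The marker mean spans only 4.96 to 5.59 there, against 6.31 to 9.29 above the gap, and Ms4a1 exceeded the floor on only 18 of all arrays. So narrow a range can hide a relation, and the weak r there does not show that the members did not track B cell markers. Over 135 relations, 45 between members and 90 with 9 marker lists, p-values were adjusted together within each set of arrays. How many of all genes, or of pairs of genes, pass such a test within a set was not counted. In limma fits over all arrays 53.4% of all genes followed the B cell marker mean and 53.9% the T cell marker mean. The counts of members and pairs that passed can therefore not be read as particular to the members. T cell markers gave nearly the same values as B cell markers above the gap (r 0.697 to 0.976 over the 9 members, all passing), and the parts of these cell types were not told apart. Epithelial markers ran the other way there (r -0.385 to -0.782, 5 of 9 passed), but without the 2 farthest arrays r was between -0.566 and -0.0354, so that relation rests on those arrays. Smooth muscle markers (r -0.833 to -0.274) and fibroblast markers (r -0.862 to -0.595) each passed for 7 of the 9 members above the gap, and without the 2 farthest arrays r was -0.895 to -0.443 and -0.711 to -0.34.

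**Figure D3:**
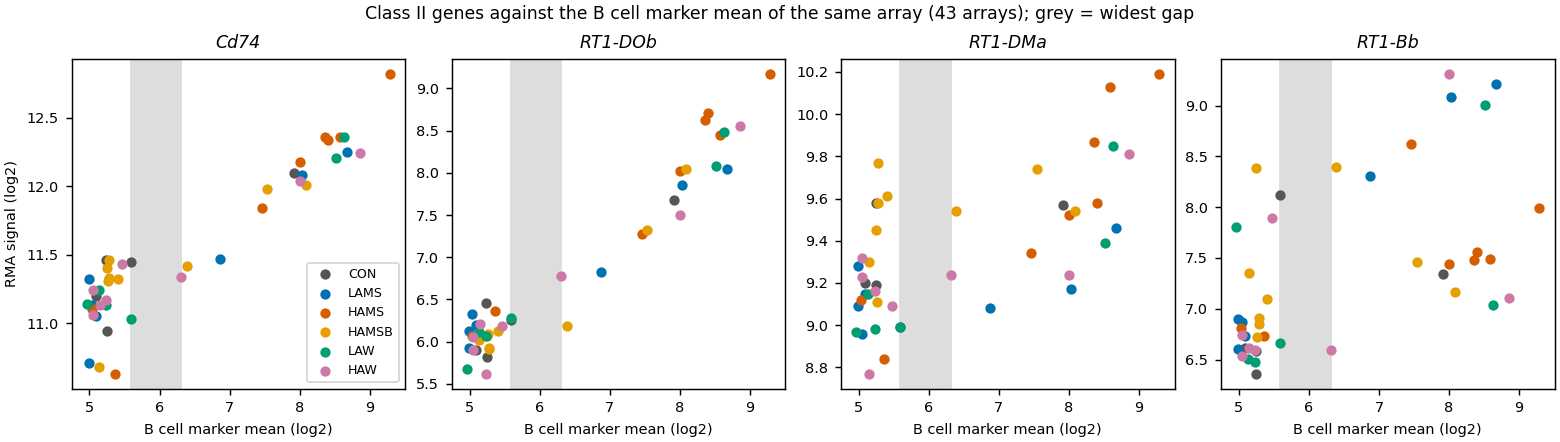
RMA signal (log2) of Cd74, RT1-DOb, RT1-DMa and RT1-Bb against the B cell marker mean (log2) of the same array, coloured by diet; the grey band is the widest gap in that mean, with 25 arrays to its left and 18 to its right. Cd74 and RT1-DOb climb along a narrow line to the right of the band, RT1-DMa less steeply, and RT1-Bb is scattered on both sides.

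The members other than RT1-Bb also followed each other. Above the gap their 36 pairs had r from 0.667 to 0.986 with a median of 0.872, and all passed (adjusted permutation p of at most 0.0177; 34 passed by rho); without the 2 farthest arrays the median was 0.836 and the lowest 0.439. Below the gap the median was 0.36 and 6 of the 36 pairs passed by r, 4 by rho. The pairs that passed by both there were Cd74 with Ciita (r = 0.822), RT1-DMa with RT1-DMb (r = 0.798), RT1-Db1 with Ciita (r = 0.755) and RT1-Ba with Cd74 (r = 0.735). Without the 2 farthest arrays these became 0.712, 0.647, 0.594 and 0.428. In those arrays 2 members followed the dendritic cell markers, a list that includes Ccr7 and Cd83, which lymphocytes also express: Ciita with r = 0.802 and rho = 0.784 (adjusted permutation p = 0.00135 and 0.00495) and Cd74 with r = 0.665 and rho = 0.593 (adjusted permutation p = 0.0233 and 0.0454), the other 7 having r from 0.0866 to 0.569 without passing. Without the 2 farthest arrays r was 0.804 for Ciita and 0.535 for Cd74. Whether the relation with dendritic cell markers differed from that with B cell markers was not tested. Over all 43 arrays the 36 pairs had r of at least 0.617 within each of the 3 file-name styles (16, 20 and 7 arrays) and at least 0.734 within each range of animal numbers (18 and 25 arrays), and of at least 0.642 without the 2 arrays farthest from the median.

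**Figure D4:**
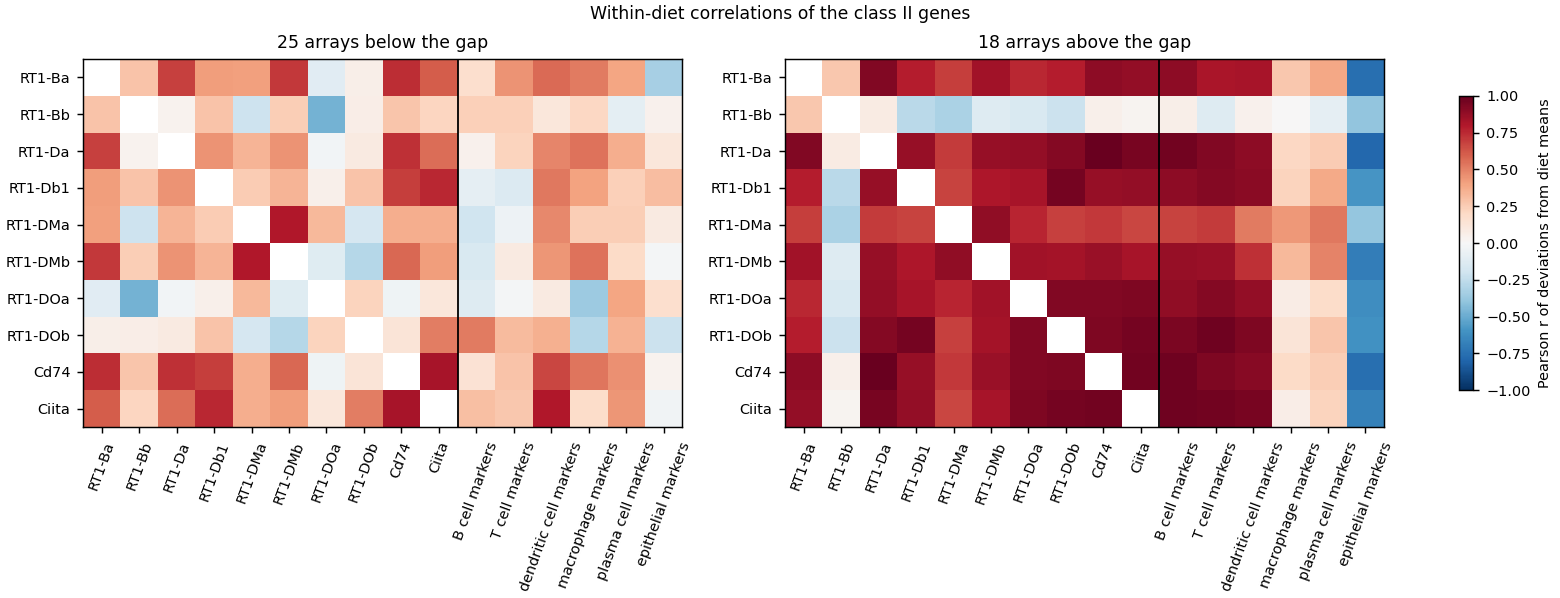
Pearson r of deviations from diet means between class II genes (left of the line) and with marker list means (right of it), in the 25 arrays below and the 18 above the gap in B cell markers. Above the gap every row but RT1-Bb is deep red up to the dendritic cell markers; below it strong values remain for a few pairs, among them RT1-DMa with RT1-DMb and Ciita with Cd74.

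The slope of the signal on the B cell level differed between members, and between the probe sets of the alpha and beta chains of RT1-DM and of RT1-DO. In a limma fit of each gene on diet and the B cell marker mean over all 43 arrays, RT1-DOb moved by 0.64 (SE 0.03) per log2 unit and Ciita by 0.59 (SE 0.02). RT1-DMb, RT1-Ba and RT1-Da moved by 0.36, RT1-Bb by 0.35, Cd74 by 0.34, RT1-DOa by 0.33, RT1-Db1 by 0.28 and RT1-DMa by 0.15 (SE 0.02). All 10 passed in that fit, as did 53.4% of all genes, but it takes in the difference between the sets of arrays. Above the gap alone the slopes were 0.826 (SE 0.0896) for RT1-DOb, 0.713 for Ciita, 0.554 for RT1-Da, 0.235 (SE 0.0772) for RT1-DMa and 0.0557 (SE 0.303) for RT1-Bb, with the other 5 between 0.415 and 0.511. Below it the slope was 0.645 (SE 0.249) for RT1-DOb and between -0.249 and 0.798 for the other 9, with SEs of 0.209 to 0.771. For the 4 alpha and beta pairs the within-array difference, beta minus alpha, was then set against the B cell level, a comparison chosen after these slopes were seen. These are slopes of signals from different probe sets, which can respond unequally to the same change, so they do not measure the amounts of the chains. RT1-DOb signal gained on that of RT1-DOa by 0.306 (SE 0.0238) and RT1-DMb on RT1-DMa by 0.212 (SE 0.0185) per log2 unit, each with the smallest p that 100000 permutations within diets can give (1e-05; 6e-05 adjusted over 12 tests). Among the 18 arrays above the gap alone those gains were 0.365 and 0.275 (adjusted permutation p = 0.00864 for both). Among the 25 below it RT1-DOb still gained on RT1-DOa (0.772, SE 0.275, adjusted permutation p = 0.00864), while the value for RT1-DMb against RT1-DMa was -0.0214 (SE 0.234). RT1-Db1 lost against RT1-Da over all arrays (-0.079, SE 0.0254, adjusted permutation p = 0.00864) and did not pass within either set (-0.17 and -0.115).

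RT1-Bb signal tracked the other class II genes least, its own partner RT1-Ba included. Probe sequences were not used here, so how evenly this probe set reads the RT1-Bb alleles of an outbred stock is not known. On the CON arrays it read 6.36, 8.12, 6.58, 6.61 and 7.34; its lowest, median and highest arrays were 6.60, 6.90 and 9.21 in LAMS, 6.73, 7.49 and 8.62 in HAMS, 6.72, 7.16 and 8.40 in HAMSB, 6.48, 6.85 and 9.01 in LAW, and 6.53, 6.67 and 9.31 in HAW. In each diet 1 or more arrays lay over 1 log2 unit above the median, and the diets overlapped throughout. The 4 arrays of highest RT1-Bb, between 9.01 and 9.31, were all above the gap in B cell markers, but high and low RT1-Bb occurred on both sides of it: RT1-Bb read 8.39 in HAMSB replicate 6, where the B cell marker mean was 5.25 and RT1-Ba 8.87, and only 7.11 in HAW replicate 5, where the B cell marker mean was 8.86 and RT1-Ba 10.13. With diet and B cell level removed, the remaining SD of RT1-Bb was 0.71, against 0.18 to 0.28 for the other 9, and 60.8% of its variance remained, against 3.48% (Ciita) to 39.4% (RT1-DMa).

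High RT1-Bb arrays occurred in every diet and every file-name style. With diet and B cell level removed, 10 arrays lay more than 0.5 above 0, namely 1 in CON, 2 in LAMS, 1 in HAMS, 2 in HAMSB, 2 in LAW and 2 in HAW, of which 4 were below and 6 above the gap in B cell markers; 5, 4 and 1 of them came from the 3 styles. RT1-Bb followed none of the other 9 members past the threshold within either set of arrays (r -0.474 to 0.287 below and -0.319 to 0.266 above the gap; smallest adjusted permutation p 0.248 and 0.457), while over all 43 arrays, where the difference between the sets enters, 8 of the 9 relations passed (r 0.187 to 0.632). With its partner RT1-Ba r was 0.287 below and 0.266 above the gap, whereas RT1-Da and RT1-Db1 had 0.451 and 0.873, and RT1-DMa and RT1-DMb 0.798 and 0.884. RT1-DOa and RT1-DOb had 0.922 above the gap, but 0.222 below it, lower than RT1-Bb with RT1-Ba. The genes most like RT1-Bb in what remained were, among the genes tested, RT1-CE16, a class I gene of the same MHC on chromosome 20 (r = 0.624), Hus1b on chromosome 17 (0.563) and Tnxa-ps1, also on chromosome 20 (0.485), followed by Alox15 and Cntnap1 on chromosome 10 (0.456 and 0.455) and the class I gene RT1-CE10 (0.455). RT1-CE16 and RT1-Bb correlated within diets at 0.567 below and 0.469 above the gap, whereas the class I gene RT1-CE5 gave -0.193 and -0.303. These neighbours were looked up after the behaviour of RT1-Bb was seen.

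By the rule for likeness, the genes whose deviations from the diet means ran closest to the mean of the 4 classical chains were Inpp5d, a lipid phosphatase of blood cells (r = 0.963 over 43 arrays, 0.749 below and 0.899 above the gap), Syk, a kinase of B cell and Fc receptors (0.954), Nckap1l (0.954), the integrin chain Itgb2 (0.952), Mfge8, Dock2, Coro1a, Smap2, Prex1, Laptm5, Fgr and Map4k1 (0.946 to 0.950). The closeness is not narrow, as 177 of 10924 genes exceeded 0.90. At the other end were Nmu (-0.859), Rhbg (-0.856), Slc44a3 (-0.855), Spdef, a goblet cell regulator (-0.854), and Ces1e (-0.852); below the gap these 5 lay between -0.446 and -0.0149.

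Other genes of the pathway were described for comparison from lists. Of 15 genes for transcription and turnover of class II, 2 passed the F test over diets: Spi1, the myeloid and B cell factor PU.1 (limma adjusted p = 0.0339), and Irf8 (limma adjusted p = 0.0384). Spi1 rose by 0.82 in HAMS over LAMS (SE 0.24, limma adjusted p = 0.0238) and fell by 0.79 in HAMSB against HAMS (SE 0.23, limma adjusted p = 0.0161), as Irf8 fell there by 0.82 (SE 0.22, limma adjusted p = 0.0112). With the B cell marker mean as a covariate Spi1 differed by 0.44 in HAMS minus LAMS (limma adjusted p = 0.0359). Spi1 then did not pass in HAMSB minus HAMS or in the F test. Irf8 differed by -0.33 in HAMSB minus HAMS with that covariate (limma adjusted p = 0.0387) and still passed the F test (limma adjusted p = 0.0144). Of 13 genes of endosomal processing 5 passed the F test, of which Sppl2a, the protease that clears the membrane stub of Cd74, Cst3, a cathepsin inhibitor, and Ctsl, a cathepsin, had the smallest p. Sppl2a fell by 0.57 in HAMS against LAMS (SE 0.17, limma adjusted p = 0.0253) and by 0.75 in HAMSB against LAMS (SE 0.17, limma adjusted p = 0.0101). In HAMS minus LAMS 4 of the 13 fell and none rose, where 1308 of all 10934 genes fell and 237 rose. Of 15 genes of class I presentation 3 passed the F test (Erap1, RT1-CE5 and Canx), of 8 in the interferon gamma axis 2 (Socs1 and Jak2), and of 4 costimulatory genes none. The F test counts stand beside the 30.7% of all genes that passed that test.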

How the data were processed

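The deposited table held log2 expression values; the submitters' processing notes name RMA as the authors' tool, whose version was not given in the sources used here. RMA corrects background, gives all arrays a shared distribution and summarises probes, so a change in overall RNA content is not seen. Of 29214 probe sets, 15310 had 1 symbol in the platform annotation, 323 several and 13581 none. Per symbol the probe set of highest mean was kept, and genes whose median reached 4.75 (the 25th percentile of probe sets with a symbol) were tested. Arrays have no read depth; their number limits the precision. The series gives the number of rats arrayed per diet, equal to the arrays, and p-values measure the spread between these rats.

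One limma 3.58.1 model (R 4.3.3; a mean per diet, eBayes with the default prior) was fitted to all 10934 genes over 43 arrays, two-sided, with Benjamini-Hochberg adjustment over all of them and a threshold of 0.05. Correlations used deviations from diet means, with 100000 two-sided permutations within diets (Python 3.11.15, numpy 2.4.6). The arrays fell into a dense low set and a spread high set of B cell levels, so correlations are given within each. Members, gene lists and tests were chosen with earlier results of these data known. All members are named; differences are printed for members that passed or, where under 3 passed, the 3 of smallest p. Likeness took the 12 highest and 5 lowest genes. Code was tested on simulated data. Figures were drawn with matplotlib 3.10.9. Replicate numbers did not pair the arrays: same-numbered arrays of different diets had a median r of -0.05 (94 pairs) and others 0.02 (671 pairs).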

Additional observations from a re-analysis of the deposited data

Results flagged for a closer look

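Among 60 groups of a member and a diet, 1 held an array far from the others. RT1-Db1 read 8.79 on HAW replicate 5, where the next highest HAW array read 8.03, a gap that was 0.611 of the range of the 8 arrays. The B cell marker mean of that array, 8.86, was the highest in HAW. Chance alone marks about 1 group in 20.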

How the results depend on the processing

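The counts of called members moved with the settings. In HAMS minus LAMS 0 became 2 with the stricter filter, 7 with array weights, 3 with arrays centred on their median, and 1 with file-name style, with animal-number range or with both as blocks. In HAMSB minus HAMS 1 became 8 with array weights, 2 with centring, 8 with the style block, 3 with both blocks, 2 with the replicate block and 0 with the B cell covariate. In HAMSB minus LAMS 0 became 1 with array weights, with the B cell covariate with and without the style block, and with the compared diets alone. In HAW minus HAMS 0 became 1 with the stricter filter, 9 with array weights, 1 with centring and 2 without the 2 arrays of lowest spread, an alternative chosen after seeing the data. In the F test 0 became 9 with array weights, 1 with centring and 1 with the B cell covariate. The cause was not tested. With the B cell covariate alone, the share of all genes called fell from 16.7% to 2.3% in HAMSB minus HAMS. In HAMSB minus LAMS that share rose from 6.78% to 13.3%. Apart from the B cell covariate without the style block, the share of all genes called was not counted under these settings. A change in called members can therefore not be told apart from a change over all genes. Leaving out each array in turn gave 0 to 5 members in HAMS minus LAMS, 0 to 8 in HAMSB minus HAMS, 0 to 7 in HAW minus HAMS and 0 to 3 in the F test. The replicate block changed no count other than that in HAMSB minus HAMS. RT1-DOb and Ciita, with medians of 6.264 and 6.019, were not tested under the stricter filter, whose floor was 6.4259. The counts with that filter leave out both. RT1-Da in LAW minus LAMS ranged from -0.32 to 0.0283 with each array left out, reversing without LAMS replicate 4. The median r of RT1-Bb with the other members, 0.488 over all arrays, was -0.129 above the gap in B cell markers and -0.149 with the B cell level removed, both chosen after seeing the data. The number of arrays limits which differences could pass.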
